A study of Homo sapiens with 9 samples.

Results

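Cytochrome P450 enzymes outside family 1 were followed in HCCLM3, an established human hepatocellular carcinoma line. The genes were taken from the authors' table of 17492 genes by symbol: 47 symbols had the form of a P450 gene with no further suffix, and the 3 genes of family 1 (CYP1A1, CYP1A2 and CYP1B1) and the sterol demethylase CYP51A1 were left out, which leaves 43. Of these, 18 had enough reads to be tested and 25 were too low. RNA-seq was made from 9 libraries, all of wild-type genotype per the labels: cells given the vehicle DMSO (3 libraries), quercetin at 50 µM (3) and quercetin at 100 µM (3). Quercetin is a plant flavonol. How long the cells were treated is not stated in the labels. The labels also do not say whether the libraries of a group are separate cultures, and the spread behind each p-value may therefore be technical. HCCLM3 is a single tumour line.

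P450 enzymes are haem proteins of the endoplasmic reticulum or the mitochondrial inner membrane that insert an oxygen atom into their substrate, with electrons passed on by a reductase. In liver, some families oxidise drugs and other foreign compounds, and others make or break down bile acids, steroids, vitamins and fatty acids. Many of their genes answer to nuclear receptors that bind the enzymes' own substrates, and hepatoma lines are known to hold much less P450 mRNA than hepatocytes.

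Library totals ran from 20061031 to 21599661 counts, and 12832 genes were tested. A pair of libraries, DMSO replicate 1 and 100 µM replicate 3, stood apart from the rest of their groups and in part in the same direction. The log2 deviations from the group means of these libraries correlated with r = 0.579 over the tested genes, which are not independent replicates. They are kept in the results, and values without 1 or both of them are given beside results that rest on them. Among the hepatocyte markers ALB, serum albumin, stood at 0.814 to 2.05 CPM (read counts scaled by library size and TMM factor) in DMSO, 6.14 to 10.6 at 50 µM and 7.02 to 16.3 at 100 µM, and APOA1 at no more than 0.203 CPM in any library. The 9 hepatocyte markers together summed to 79.8 to 98.7 CPM in DMSO, 213 to 232 at 50 µM and 250.0 to 291 at 100 µM. The called markers did not all move in 1 direction: at 50 µM 3 of the 8 tested were called higher and 3 lower, and at 100 µM 4 higher and 1 lower. TF, transferrin, was the most abundant of them at both doses, with 17.0 to 40.2, 127 to 136 and 139 to 196 CPM in dose order, while APOB was called lower at both doses (1.68 to 1.81 CPM at 50 µM and 1.83 to 2.68 at 100 µM, against 8.01 to 9.20 in DMSO). Leukocyte markers, mostly CD68, summed to 139 to 199, 128 to 144 and 217 to 297 CPM in the same order, with CD68 called higher at 100 µM against DMSO and 50 µM and 0 of the 3 tested called at 50 µM, while CD3E did not exceed 0.0465 CPM. Fibroblast markers summed to 6.71 to 9.52, 3.34 to 3.88 and 9.93 to 12.9 CPM, endothelial markers, mostly PECAM1, to 29.8 to 32.0, 16.6 to 18.8 and 18.6 to 20.1 CPM, and bile duct markers, mostly KRT19, to 329 to 359, 335 to 353 and 328 to 455 CPM, where the bile duct sums overlapped and 0 of their 2 tested genes were called in edgeR. PECAM1 was called lower at 50 µM (log2 -0.80, edgeR adjusted p = 0.00286) and at 100 µM (-0.77, 0.000864), and VWF was not called. DCN, the 1 fibroblast marker tested, was called lower at 50 µM (log2 -1.28, edgeR adjusted p = 0.00747). It was not called at 100 µM against DMSO (log2 0.48, edgeR adjusted p = 0.0851) and was called higher at 100 than at 50 µM (1.76, 0.00245). The part of these markers in the P450 results was not tested.

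The P450 mRNA of these cells was concentrated in a few genes. Levels of different genes are compared in FPKM, reads scaled for transcript length and library depth. The 18 tested genes held 99.2% of the FPKM summed over all 43, and the top 5 held 79.2%. CYP27A1, the mitochondrial sterol 27-hydroxylase of bile acid synthesis, came first with a mean of 53.7 FPKM over the 9 libraries (38.7 to 61.9), and did not overlap with the next gene. There followed CYP4F11, a fatty acid omega-hydroxylase, at 22.0 FPKM (17.1 to 28.0), CYP2S1, whose substrates are not settled, at 20.8 (14.0 to 26.7), CYP3A5, a drug-oxidising enzyme, at 16.3 (10.4 to 29.9), and CYP24A1, which inactivates vitamin D, at 9.75 (3.52 to 16.8). Each of these 4 overlapped with the next gene in the order. CYP4F3, CYP2R1, CYP4F12 and CYP20A1 lay between 8.19 and 5.05 FPKM on average, each overlapping the next, and a gap without overlap separated CYP20A1 from CYP4V2 at 1.39 FPKM. The other 8 tested genes averaged 1.11 FPKM or less. CYP19A1 had the widest range between its lowest and highest library, 6-fold, while CYP26B1 spanned 5.33-fold and CYP24A1 4.76-fold.

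**Figure D1:**
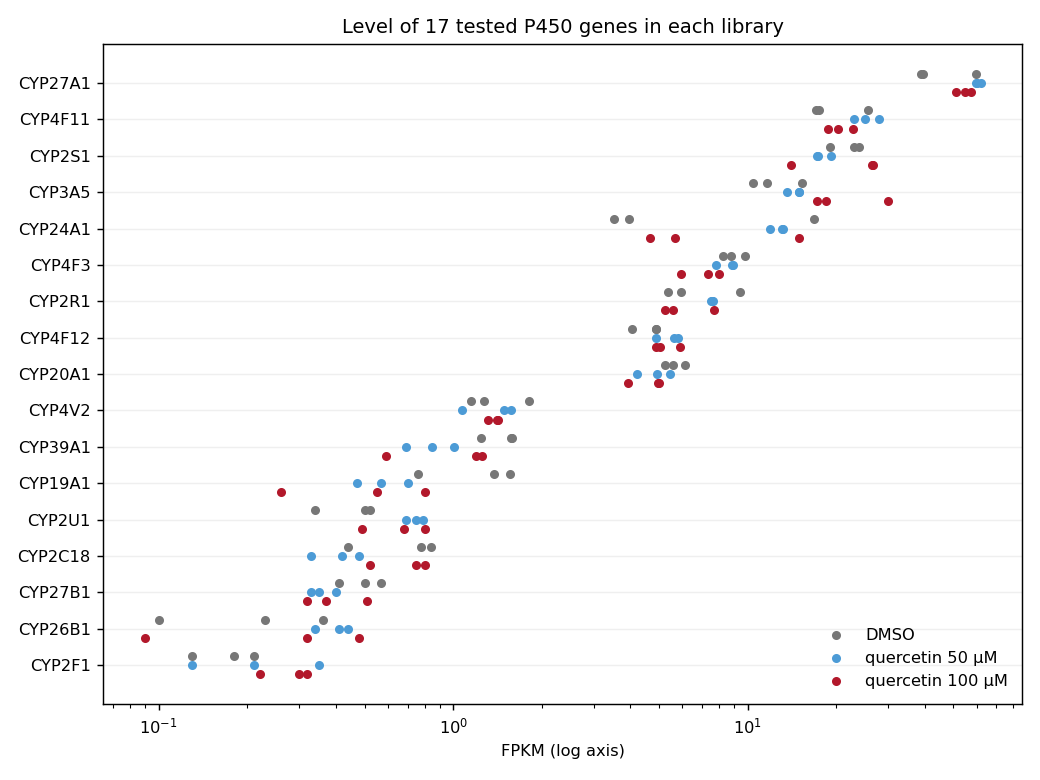
FPKM (log axis) of 17 of the 18 tested P450 genes in each of the 9 libraries, ordered by mean, with DMSO, 50 µM and 100 µM drawn as grey, blue and red points. CYP27A1 lies above all others, and CYP27A1 and CYP20A1 are the 2 genes whose range over the libraries does not reach that of the next gene.

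The 25 genes too low to test included most of the P450s that define the adult liver. The drug enzymes CYP3A4, CYP2C8, CYP2C19, CYP2D6, CYP2B6 and CYP2E1 held 20, 12, 28, 35, 47 and 36 counts summed over all 9 libraries. CYP7A1, the rate-limiting enzyme of bile acid synthesis, held 3 counts and CYP8B1, which sets the kind of bile acid made, 51. CYP7B1, an oxysterol hydroxylase, held 9. Of the steroid hormone enzymes, CYP11B1, CYP11B2 and CYP17A1 held 1, 1 and 2 counts and CYP21A2 held 64. The brain cholesterol hydroxylase CYP46A1 held 1 count and the retinoic acid hydroxylase CYP26A1 held 2. The rest were CYP27C1 (23), CYP2J2 (37), CYP2W1 (35), CYP3A43 (23), CYP3A7 (20), CYP4A11 (21), CYP4A22 (21), CYP4F2 (7), CYP4F8 (14) and CYP4X1 (2). Across these 25 the highest level in any library was 0.84 CPM, for CYP2J2 in 100 µM replicate 3, and 8 of them were at 0 in at least 5 libraries. These genes did not pass the filter on low counts, so differences between groups in them were not tested in the fit of 12832 genes.

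Within gene clusters 1 gene carried most of the signal. In the CYP3A cluster on chromosome 7 (GRCh38, 99648194 to 99875010), CYP3A5 held 97.3% to 99.9% of the summed FPKM of 4 genes. In the CYP4F cluster on chromosome 19 (15615207 to 15934867) CYP4F11 held 55.7% to 67.4% of 5 genes. Reads of such near copies can be split between them by the authors' estimation, so the low members of a cluster are uncertain.

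By role, the summed FPKM of the 43 genes was 142 ± 27.1 in DMSO, 164 ± 0.618 at 50 µM and 158 ± 3.4 at 100 µM (SD, n = 3 libraries). The 11 sterol, steroid and bile acid genes, nearly all of it CYP27A1, gave 48.9 ± 11.1, 62.3 ± 1.32 and 56.4 ± 3.71 FPKM in that order. The 10 fatty acid and eicosanoid genes gave 35.7 ± 6.27, 41.7 ± 3.05 and 35.3 ± 1.37 FPKM, and the 6 vitamin A and D genes 15.7 ± 9.88, 21.1 ± 0.726 and 15.3 ± 6.83 FPKM. The 12 drug and foreign compound genes gave 14.0 ± 2.83, 15.7 ± 0.661 and 23.7 ± 6.83 FPKM, which is 9.88%, 9.61% and 14.9% of the total. The 4 genes without a settled role gave 27.7 ± 2.87, 22.9 ± 1.34 and 27.2 ± 7.88 FPKM. The role sums carry no test. In bulk RNA a lower level in each cell and fewer cells with the transcript cannot be told apart.

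**Figure D2:**
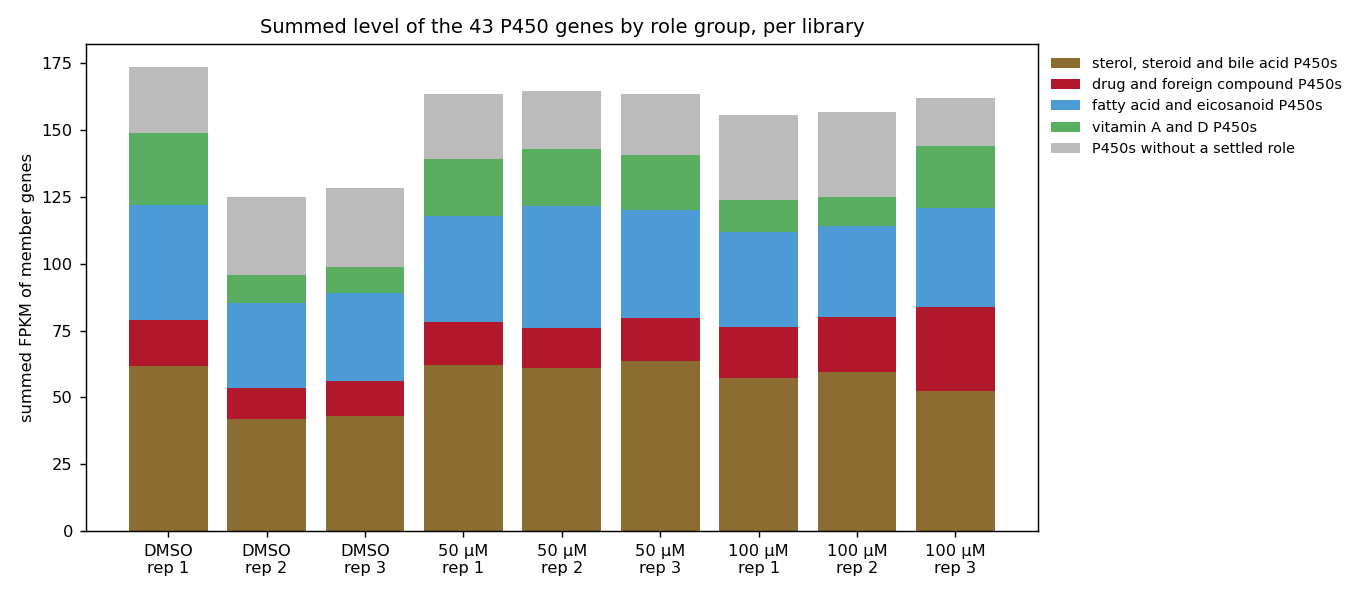
Summed FPKM of the 43 genes by role group, 1 stacked bar for each library, in the order DMSO, 50 µM, 100 µM. DMSO replicate 1 stands above the other DMSO libraries, and the red block of drug and foreign compound genes is tallest in 100 µM replicate 3.

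CYP3A5 was the 1 tested P450 gene that edgeR called at 100 µM against DMSO with all libraries. CYP3A5 (gene 1577, chromosome 7, 99648194 to 99679996) encodes a relative of the main drug-oxidising enzyme CYP3A4 and is the only CYP3A gene tested here. It held 29.5, 20.6 and 23.4 CPM in the DMSO libraries, 28.7, 25.2 and 28.0 at 50 µM, and 31.5, 33.6 and 60.1 at 100 µM. All libraries at 100 µM lay above all others, replicate 3 far above the rest, while 50 µM overlapped with DMSO. The mean was 41.7 ± 16.0 CPM at 100 µM and 24.5 ± 4.57 in DMSO (SD, n = 3 each), a log2 fold change of 0.77 ± 0.235 (SE; 95% interval 0.24 to 1.29; edgeR adjusted p = 0.0457), or 1.7-fold. Without 100 µM replicate 3 it was 1.33-fold (log2 0.42, edgeR adjusted p = 0.0365). Without DMSO replicate 1 and 100 µM replicate 3 together it was 1.49-fold (log2 0.57 ± 0.0912, edgeR adjusted p = 7.24e-06), and the call was lost without DMSO replicate 2 (0.153) or 3 (0.138) or any 50 µM library (0.0713 to 0.0737), in edgeR in each case. It was also lost in a fit of these 2 groups alone (edgeR adjusted p = 0.116) and with no filter on low counts (0.0561). At 100 µM CYP3A5 was higher than at 50 µM in every library, but did not pass the test (log2 0.61 ± 0.234, edgeR adjusted p = 0.165), and at 50 µM against DMSO the log2 fold change was 0.16 ± 0.236 (edgeR adjusted p = 0.671).

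The 250 bases before the CYP3A5 start hold the hexamer AGGTCA, the core recognition sequence of many nuclear receptors, and are shown because CYP3A5 is the 1 gene called. The sequence is from RefSeq (GRCh38.p14, chr7:99679997-99680246, minus strand, 5′ to 3′), with the hexamer at -101 in capitals.
CYP3A5: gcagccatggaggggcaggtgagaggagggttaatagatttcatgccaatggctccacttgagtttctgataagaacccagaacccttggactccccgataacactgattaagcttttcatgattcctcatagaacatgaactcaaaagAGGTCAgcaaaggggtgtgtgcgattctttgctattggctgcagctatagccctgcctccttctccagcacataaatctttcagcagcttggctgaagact
RefSeq promoters were matched for 12 of the 18 tested genes, and AGGTCA was found on either strand in 4 of them (CYP3A5, CYP19A1, CYP2S1 and CYP4V2), against 12.1% of all 27305 promoters. The match is a description of the window and says nothing of binding. Besides GGTTCA, given below, other motifs were searched in the same 12 promoters and found in 1 each. These were GCGTG of the aryl hydrocarbon receptor (CYP20A1, 31.9% of all promoters), ACGTG of the hypoxia element (CYP4V2, 18.7%) and the TATA box TATAA (CYP26B1, 19.6%).

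Across the tested genes at 100 µM against DMSO, CYP3A5 was the 1 of 18 called higher and 0 were called lower by edgeR's quasi-likelihood test, against 21.0% of all tested genes in either direction (10.7% higher and 10.3% lower). At an unadjusted p under 0.05 there were 3 of 18, against 36.6% of all genes, and DESeq2 called 2 (26.3% of all genes). The groups did not overlap for 4 of 18 members, CYP2F1 and CYP3A5 higher and CYP39A1 and CYP4F3 lower, against 35.9% of all genes. The median log2 fold change was 0.05 over the members and 0.0 over all genes tested. At 50 µM against DMSO 0 of 18 were called, against 11.6% of all genes; 6 had an unadjusted p under 0.05 (32.2% of all genes) and DESeq2 called 3 (20.0%). At 50 µM the groups did not overlap for 8 of 18 members, against 49.0% of all genes, among them CYP26B1, CYP27A1, CYP2U1 and CYP4F12 higher and CYP19A1, CYP27B1 and CYP39A1 lower. At 100 against 50 µM 0 of 18 were called (4.15% of all genes; 3 at an unadjusted p under 0.05, 22.0% of all; DESeq2 0, 10.7%), with no overlap for 4, CYP2C18 and CYP3A5 higher and CYP27A1 and CYP4F3 lower, against 27.7%. The standard errors of the members were larger than those of all genes, with a median of 0.239 against 0.134 at 50 µM. All comparisons share libraries: the quercetin groups are set against the same DMSO libraries, and both doses enter the comparison between them.

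**Figure D3:**
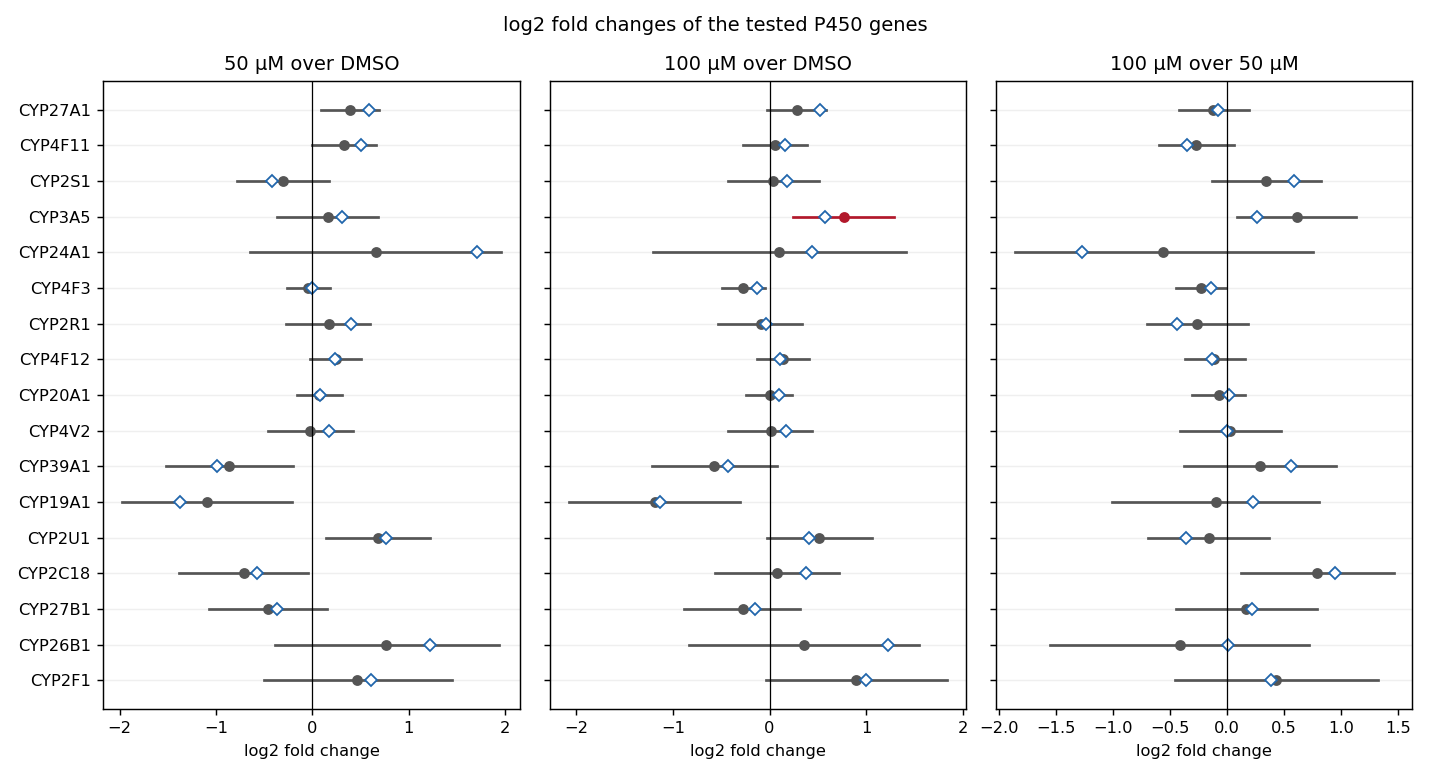
log2 fold changes of 17 of the 18 tested genes in the 3 comparisons (x axis, with 95% intervals; edgeR, all 9 libraries), red where the adjusted p is under 0.05; open diamonds are the values without DMSO replicate 1 and 100 µM replicate 3. CYP3A5 at 100 µM over DMSO is the 1 red point, and the diamond of CYP24A1 at 50 µM lies at 1.71 against 0.66 for the dot.

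None of the 3 tested sterol and steroid enzymes passed edgeR's test with all libraries. In DESeq2 with all libraries all 3 passed at 50 µM, CYP19A1 (adjusted p = 0.0456) and CYP39A1 (0.0486) lower and CYP27A1 (0.0428) higher. CYP19A1 was also lower at 100 µM in DESeq2 (adjusted p = 0.0209). DESeq2 called 16.7% of the tested members at 50 µM, against 20.0% of all genes, and 11.1% at 100 µM, against 26.3%. CYP27A1 (gene 1593, chromosome 2, 218777018 to 218815293) held 107, 72.8 and 75.1 CPM in the DMSO libraries, 112, 109 and 114 at 50 µM and 103, 108 and 98.4 at 100 µM. All libraries at 50 µM lay above all DMSO libraries, of which replicate 1 was near them. At 50 µM the log2 fold change was 0.39 ± 0.135 (95% interval 0.09 to 0.69; edgeR adjusted p = 0.0825), and at 100 µM it was 0.28 ± 0.135 (edgeR adjusted p = 0.169), and neither passed edgeR's test. Without DMSO replicate 1 the value at 50 µM was 0.60 (edgeR adjusted p = 0.00241). The 250 bases before its RefSeq start, which lies inside the span above, hold the hexamer of the vitamin D receptor, GGTTCA, on the minus strand at -45; 7.17% of all promoters hold it, and CYP27A1 was the 1 of 12 matched members. The sequence is shown as that of the most abundant P450 gene (RefSeq, GRCh38.p14, chr2:218781897-218782146, plus strand, 5′ to 3′), with the complement TGAACC in capitals.
CYP27A1: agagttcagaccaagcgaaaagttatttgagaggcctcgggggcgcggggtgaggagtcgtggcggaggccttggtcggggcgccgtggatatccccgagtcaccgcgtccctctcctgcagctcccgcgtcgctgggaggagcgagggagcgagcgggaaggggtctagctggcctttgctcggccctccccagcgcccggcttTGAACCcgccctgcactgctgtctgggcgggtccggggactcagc

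CYP19A1 (gene 1588, chromosome 15, 51208057 to 51338596), aromatase, which makes oestrogens, held 3.15, 6.03 and 6.92 CPM in DMSO, 3.02, 2.04 and 2.47 at 50 µM and 3.44, 2.42 and 1.14 at 100 µM. All libraries at 50 µM lay below all DMSO libraries, while 100 µM replicate 1 overlapped with DMSO replicate 1. The log2 fold change was -1.09 ± 0.392 at 50 µM (edgeR adjusted p = 0.0933) and -1.19 ± 0.394 at 100 µM (edgeR adjusted p = 0.0575), so neither passed edgeR's test with all libraries. It passed at 100 µM with limma on log2(FPKM + 1) (log2 -0.54 on that scale, limma adjusted p = 0.0452). Without DMSO replicate 1 and 100 µM replicate 3 it passed at 50 µM (log2 -1.37, edgeR adjusted p = 1.76e-07) and at 100 µM (log2 -1.13, edgeR adjusted p = 1.66e-05). CYP39A1 (gene 51302, chromosome 6, 46549520 to 46652849), an oxysterol hydroxylase of a side route to bile acids, held 2.78, 3.58 and 3.92 CPM in DMSO, 2.25, 1.49 and 1.91 at 50 µM and 2.78, 2.74 and 1.38 at 100 µM. Its libraries at 50 µM lay below all DMSO libraries (log2 -0.86 ± 0.294, 95% interval -1.52 to -0.20, edgeR adjusted p = 0.081). At 100 µM the difference was -0.57 ± 0.29 (edgeR adjusted p = 0.186). The groups at 100 µM and in DMSO are counted above as not overlapping, but the highest library at 100 µM and the lowest in DMSO both round to 2.78 CPM. At 50 µM 3 members passed q under 0.05 in the authors' deposited table, CYP19A1 (log2 -1.11, q = 0.00416), CYP27A1 (0.39, q = 0.023) and CYP39A1 (-0.87, q = 0.0256), against 22.4% of all genes there, and CYP3A5 passed at 100 µM (0.76, q = 0.0491; 11.2% of all genes). The authors' deposited table had 0 members past that threshold between the doses (5.86% of all genes).

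None of the 4 tested vitamin A and D enzymes passed edgeR's test or DESeq2 with all libraries. CYP24A1 (gene 1591, chromosome 20, 54145721 to 54174032) held 54.2, 13.3 and 12.4 CPM in the DMSO libraries, 43.8, 43.3 and 39.2 at 50 µM and 19.1, 15.6 and 51.3 at 100 µM. DMSO replicate 1 was 4.23-fold above the mean of the other DMSO libraries, and 100 µM replicate 3 was 2.96-fold above the mean of the others of its group, while the 50 µM libraries were close together. With all libraries the log2 fold change was 0.66 ± 0.583 at 50 µM (95% interval -0.65 to 1.96; edgeR adjusted p = 0.454) and 0.10 ± 0.586 at 100 µM (95% interval -1.21 to 1.41; edgeR adjusted p = 0.917). Without DMSO replicate 1 it rose 3.29-fold at 50 µM (log2 1.72, edgeR adjusted p = 0.0313). Without both libraries it was 3.28-fold higher at 50 µM (edgeR adjusted p = 7.48e-15) and lower at 100 than at 50 µM by 2.41-fold (log2 -1.27, edgeR adjusted p = 4.44e-12). At 100 µM the sign against DMSO changed with the library left out, between -0.62 without 100 µM replicate 3 and 1.16 without DMSO replicate 1.

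CYP2R1, the 25-hydroxylase that starts vitamin D activation, held 19.2, 13.5 and 11.7 CPM in DMSO, 16.6, 17.1 and 16.1 at 50 µM and 12.6, 11.9 and 17.2 at 100 µM, and its groups overlapped (log2 0.17 ± 0.194 at 50 µM and -0.09 ± 0.195 at 100 µM against DMSO). CYP27B1, the 1-alpha-hydroxylase, held 0.97 to 1.28 CPM in DMSO, 0.74 to 0.93 at 50 µM and 0.74 to 1.18 at 100 µM (log2 -0.46 ± 0.273 and -0.28 ± 0.27; edgeR adjusted p = 0.269 and 0.474). The FPKM ratio of CYP24A1 to CYP27B1 was 29.4, 7.92 and 8.59 in DMSO, 37.4, 40.1 and 29.8 at 50 µM and 11.1, 14.6 and 40.5 at 100 µM, and followed CYP24A1. CYP26B1, which breaks down retinoic acid, stood at 1.46, 0.47 and 0.97 CPM in DMSO, 1.49, 1.76 and 1.72 at 50 µM and 1.32, 2.00 and 0.40 at 100 µM, with groups at 100 µM and DMSO overlapping. VDR, the receptor whose ligand CYP24A1 destroys, fell at both doses, to 3.17, 3.34 and 2.88 CPM at 50 µM and 5.65, 5.21 and 2.62 at 100 µM, against 8.31, 11.8 and 12.5 CPM in DMSO. Its log2 fold changes were -1.79 ± 0.275 at 50 µM (edgeR adjusted p = 0.0087) and -1.27 ± 0.268 at 100 µM (edgeR adjusted p = 0.011). The call at 50 µM was lost without DMSO replicate 2 or 3 or 50 µM replicate 1 or 3 (edgeR adjusted p = 0.0524 to 0.0619), and the call at 100 µM without DMSO replicate 3 (0.0542).

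**Figure D4:**
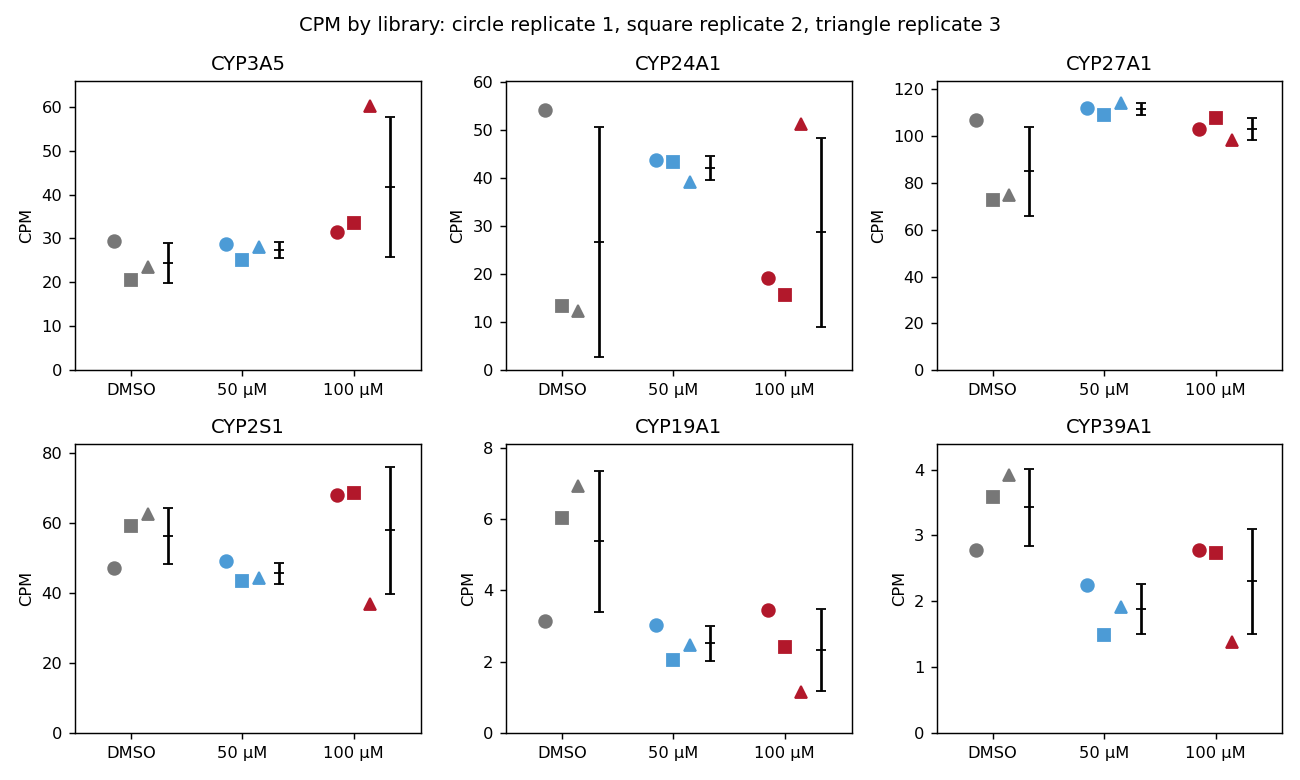
CPM by library for 6 genes, with circle, square and triangle for replicates 1, 2 and 3 and the mean ± SD beside each group. DMSO replicate 1 and 100 µM replicate 3 lie far above the rest of their groups for CYP24A1 (54.2 and 51.3 CPM) and below them for CYP19A1 (3.15 and 1.14 CPM).

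None of the 5 tested fatty acid enzymes passed edgeR's test or DESeq2 with all libraries. CYP4F11 (gene 57834, chromosome 19, 15912377 to 15934867), which also acts on vitamin K, held 72.7, 51.9 and 51.5 CPM in DMSO, 67.3, 81.0 and 73.2 at 50 µM and 59.8, 55.1 and 69.2 at 100 µM. At 50 µM it overlapped DMSO through DMSO replicate 1, with a log2 fold change of 0.33 ± 0.147 (edgeR adjusted p = 0.155), and 0.52 without that library (edgeR adjusted p = 0.0181). CYP4F3, a hydroxylase of leukotriene B4, held 42.7, 37.6 and 40.6 CPM in DMSO, 40.2, 40.2 and 37.2 at 50 µM and 36.6, 34.4 and 29.3 at 100 µM. Its libraries at 100 µM lay below all others (log2 -0.27 ± 0.0994 against DMSO, 95% interval -0.49 to -0.05, edgeR adjusted p = 0.0798). CYP4F12 had log2 fold changes of 0.25 ± 0.119 at 50 µM and 0.14 ± 0.12 at 100 µM, and CYP4V2, a fatty acid hydroxylase altered in a corneal and retinal dystrophy, of -0.02 ± 0.195 and 0.01 ± 0.195. CYP2U1, a hydroxylase of long-chain fatty acids, held 2.37, 1.60 and 2.39 CPM in DMSO, 3.36, 3.20 and 3.63 at 50 µM and 2.97, 2.28 and 3.85 at 100 µM. All its libraries at 50 µM lay above DMSO (log2 0.68 ± 0.243, 95% interval 0.14 to 1.22, edgeR adjusted p = 0.092). CYP2U1 shares 149 and 376 exon bases with antisense genes in GENCODE 29, CYP4V2 shares 201 with KLKB1, CYP27B1 shares 107 with METTL1, CYP19A1 shares 43 with MIR4713HG and CYP2C18 shares 931 with AL583836.1. Whether reads were counted by strand is not stated in the labels, and reads of these genes may be shared with their neighbours.

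Among the P450s without a settled role, CYP2S1 (gene 29785, chromosome 19, 41193219 to 41207539) held 47.3, 59.2 and 62.5 CPM in DMSO, 49.1, 43.5 and 44.3 at 50 µM and 68.1, 68.7 and 37.0 at 100 µM. 100 µM replicate 3 lay below every other library and its fellow libraries above every other. The log2 fold change was -0.30 ± 0.212 at 50 µM (edgeR adjusted p = 0.343), 0.04 ± 0.211 at 100 µM (0.908) and 0.34 ± 0.212 at 100 over 50 µM (0.384). Without 100 µM replicate 3 the last was 0.58 (edgeR adjusted p = 0.00357). In counts CYP20A1 did not move beyond its error in any comparison (log2 0.07 ± 0.106 at 50 µM and -0.00 ± 0.106 at 100 µM). In FPKM its libraries at 100 µM (5.02, 4.96 and 3.94) lay below all in DMSO (5.23, 6.15 and 5.6). With limma on log2(FPKM + 1) its value at 50 µM against DMSO was -0.19 (limma adjusted p = 0.288). Of the low drug genes, CYP2C18 held 1.78, 1.04 and 1.73 CPM in DMSO and 0.96, 0.74 and 1.07 at 50 µM. At 100 µM it held 1.84, 1.72 and 1.24 CPM, near DMSO (log2 0.08 ± 0.287, edgeR adjusted p = 0.868). The 50 µM group was the low one, with log2 -0.71 ± 0.301 against DMSO (edgeR adjusted p = 0.139). At 100 over 50 µM the log2 fold change was 0.79 ± 0.3 (edgeR adjusted p = 0.161). CYP2F1, known from lung, held at most 0.58 CPM and did not pass in any comparison.

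Leaving out DMSO replicate 1 and 100 µM replicate 3 changed which P450 genes were called. At 50 µM against DMSO 10 of 18 were then called, CYP24A1, CYP26B1, CYP27A1, CYP2R1, CYP2U1, CYP3A5 and CYP4F11 higher and CYP19A1, CYP2S1 and CYP39A1 lower, against 57.4% of all genes. At 100 µM against DMSO 6 were called, CYP24A1, CYP26B1, CYP27A1, CYP2S1 and CYP3A5 higher and CYP19A1 lower, against 48.6%. At 100 over 50 µM 7 were called, CYP2C18, CYP2S1, CYP39A1 and CYP3A5 higher and CYP24A1, CYP2R1 and CYP4F11 lower, against 47.3%. The members' shares of 55.6%, 33.3% and 38.9% did not exceed those of all genes, and leaving out these libraries lowers the measured spread. Against the other libraries of their groups, the absolute log2 difference of the members had a median of 0.387 for 100 µM replicate 3 and 0.427 for DMSO replicate 1, against 0.315 and 0.2 over all genes. The sign was the same in both libraries for 11 of 18 members (61.1%), against 70.5% of all genes.

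**Figure D5:**
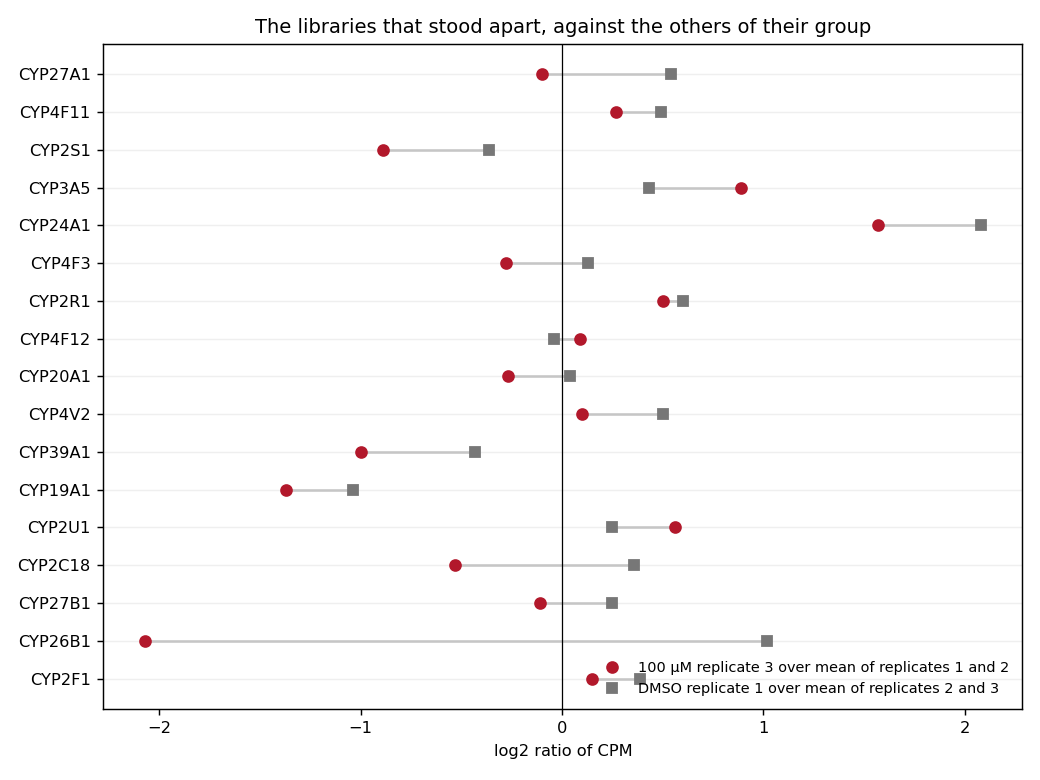
log2 ratio of CPM of 100 µM replicate 3 (red) and DMSO replicate 1 (grey) over the mean of the other 2 libraries of the group, for 17 of the 18 tested genes. CYP24A1 is high in both and CYP19A1 low in both, while CYP26B1 is low in 100 µM replicate 3 (-2.07) and high in DMSO replicate 1 (1.02).

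Transcripts of proteins that pass electrons to P450 enzymes, make their haem or regulate their genes were read from lists. Of 10 genes of electron donors and their partners, 2 rose and 2 fell at 100 µM, where 21.0% of all genes were called, and 1 rose at 50 µM, near the 11.6% called among all genes. PGRMC2 and PGRMC1, haem-binding membrane proteins that bind P450s, rose at 100 µM (log2 0.69, edgeR adjusted p = 0.00429, and 0.40, 0.0162), and PGRMC1 was the 1 called at 50 µM. The cytochromes b5 CYB5B and CYB5A fell (log2 -0.47, edgeR adjusted p = 0.0111, and -0.42, 0.0144). POR, the reductase of the microsomal P450s, held 163, 263 and 260 CPM in DMSO, 177, 170 and 182 at 50 µM and 228, 235 and 135 at 100 µM, and was not called (log2 -0.38 at 50 µM, edgeR adjusted p = 0.27, and -0.20 at 100 µM, 0.554). Without DMSO replicate 1 and 100 µM replicate 3, POR was called lower at 50 µM (log2 -0.57, edgeR adjusted p = 7.23e-10) and at 100 µM (-0.17, 0.0213). Of 8 haem synthesis genes, FECH, which inserts the iron, fell at 100 µM (log2 -0.56, edgeR adjusted p = 0.00561) and ALAD rose at 50 µM (0.42, edgeR adjusted p = 0.0487). Each was the 1 haem gene called at that dose, against 21.0% of all genes at 100 µM and 11.6% at 50 µM. Between the doses CYB5B (log2 -0.57, edgeR adjusted p = 0.0186) and FECH (-0.43, 0.0462) were lower at 100 than at 50 µM. They were 1 of 10 donor genes and 1 of 8 haem genes, where 4.15% of all genes were called. At 100 µM against DMSO the calls of PGRMC2 and FECH held in 9 of 9 fits with 1 library left out. Those of CYB5B and PGRMC1 were lost without DMSO replicate 2 or 3, and that of CYB5A without DMSO replicate 2. PGRMC1 and ALAD at 50 µM kept the call in 4 and 2 of 9 such fits, and CYB5B and FECH between the doses in 6 and 3.

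Of 16 nuclear receptor genes listed, 13 were tested. At 100 µM 2 rose and 2 fell, against 21.0% of all genes called, and at 50 µM 1 rose and 2 fell, against 11.6%. Besides VDR, NR1H2, an oxysterol receptor, rose (log2 0.24, edgeR adjusted p = 0.0355) and RXRA, the shared partner of these receptors, fell (-0.29, 0.0368) at 100 µM. HNF4A, a hepatocyte factor, fell at 50 µM (log2 -0.75, edgeR adjusted p = 0.032), and RARB, a retinoic acid receptor, rose (0.57, 0.0412). NR1I2, the pregnane X receptor that drives CYP3A genes, was named after its values were seen. It held 1.92, 1.55 and 1.47 CPM in DMSO, 1.63, 2.00 and 1.58 at 50 µM and 2.12, 3.25 and 7.51 at 100 µM, and passed at 100 µM (log2 1.37 ± 0.415, edgeR adjusted p = 0.0432). Its value was 0.71 without 100 µM replicate 3 (edgeR adjusted p = 0.0564) and 0.83 without DMSO replicate 1 as well (edgeR adjusted p = 0.00968), and it was called in 1 of 9 fits that left out a library. The calls of NR1H2 and RXRA held in 3 of 9 such fits each, HNF4A in 4 and RARB in 2.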

How the data were processed

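RNA-seq of 9 HCCLM3 libraries in 3 groups was analysed from the authors' table. For each library the authors deposited expected counts, which are estimates and need not be whole, beside FPKM, TPM and scaled read counts. The authors also deposited log2 fold changes of their own comparisons, with DESeq2 p-values and q-values per the file headers. RSEM 1.2.12, Bowtie2 2.2.5 and HISAT2 2.0.4 and the build GRCh38.p13 are named in the submitters' processing notes, without their roles. A nuclease step that removes abundant double-stranded cDNA, per the labels' protocols, may compress levels of different genes. TPM and the scaled counts were not used here.

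Expected counts were rounded and filtered with edgeR's filterByExpr (minimum count 10, total 15, share 0.7), which left 12832 genes and removed 4660. All 9 libraries entered 1 TMM-scaled edgeR quasi-likelihood fit (edgeR 4.0.16 in R 4.3.3, two-sided, with robust dispersions; limma 3.58.1 and DESeq2 1.42.0 served as alternatives), with Benjamini-Hochberg adjustment over all tested genes and a threshold of 0.05. Standard errors were taken as the size of the log2 fold change over the square root of F. The biological coefficient of variation was 14.4%. The fit was also run on simulated counts drawn independently for each library. That run held no libraries that stand apart together, so it cannot decide how such libraries affect the calls. Members were all tested P450 symbols. Of the other lists the rule was to name the called genes of lowest adjusted p, up to 3 a list, with POR and HNF4A. The results go beyond this rule and name every called gene of the electron donor, haem synthesis and nuclear receptor lists. Members, lists and rules were chosen with earlier results of these data known. Promoters were read from RefSeq (GRCh38.p14). The results of 1 tested member are not reported here; it stays in the fit and in the counts.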

Additional observations from a re-analysis of the deposited data

How the results depend on the processing

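With all 9 libraries the call counts were 0 of 18 at 50 µM, 1 at 100 µM and 0 between the doses. Over all genes 11.6%, 21.0% and 4.15% were called. At 50 µM the count was 3 in DESeq2, 4 of 17 tested in a fit of the 2 groups alone and 10 without DMSO replicate 1 and 100 µM replicate 3 together. With 1 library left out it was 0 to 5 (4 without DMSO replicate 1, 5 without 100 µM replicate 3). Over all genes the calls at 50 µM were 20.0% in DESeq2, 4269 of 12609 with 2 groups alone and 57.4% without both libraries. They were 2842 of 12970 without DMSO replicate 1 and 4739 of 12937 without 100 µM replicate 3. At 100 µM the member count was 2 in DESeq2, 0 without a filter on low counts, 0 with 2 groups alone and 0 with the replicate block. It was 2 with limma on log2(FPKM + 1), 6 without both libraries and 0 to 3 with 1 library left out (3 without DMSO replicate 1). Over all genes 26.3% were called at 100 µM in DESeq2, 48.6% without both libraries and 2594 of 12832 with limma on log2(FPKM + 1). Calls numbered 2390 of 17433 genes with no filter, 1024 of 12667 with 2 groups alone and 3176 of 12970 without DMSO replicate 1. Between the doses the member count was 7 without both libraries and 0 to 2 with 1 library left out (2 without 100 µM replicate 3). Over all genes 47.3% were called between the doses without both libraries and 3561 of 12937 without 100 µM replicate 3.

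Of 960 log2 fold changes of members under the alternatives, 856 kept direction and side of the threshold, 45 passed it, 8 fell below it and 51 changed sign without a call, and 0 called values changed sign. Replicate numbers gave no sign of pairing the libraries. Same-numbered libraries deviated with correlations of -0.544 to 0.387, 2 of 9 over 0.1, and a library correlated best with its own number in 3 of 18 cases. Deviations within a group of 3 depend on each other, so this check cannot decide whether numbers share a batch. The replicate block called 427, 1672 and 109 genes, against 1488, 2692 and 532 without it, at 50 µM, 100 µM and between the doses, and 0, 0 and 0 members. In the fit of the 2 groups alone, 4269, 1024 and 251 genes were called, and in DESeq2 2567, 3379 and 1370. The cause of these changes was not tested. The 25 untested genes, whose highest level was 0.84 CPM, did not pass the filter on low counts.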
